A study of Mus musculus with 4 samples.

Results

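The genes described here mark B and T lymphocytes, the white blood cells of adaptive immunity, and were read in RNA from whole mouse mammary tissue. The 36 genes were chosen by name, with earlier results of these data known. They are genes of the antigen receptors, coreceptors, transcription factors and homing signals of these cells. Each was read from its brightest probe set with no limit on signal. Of the 36, 33 had a probe set carrying that single gene symbol, out of 18193 genes on the array named this way. Lck and Tcf7 had no such entry, and the probe set for Ccl19 carries several symbols, so these 3 were not analysed here. The 33 were 12 B cell genes, 15 T cell genes, 5 genes shared by lymphocytes or by all leukocytes, and the chemokine gene Cxcl13.

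The arrays came from 2 mice labelled STAT5 WT (wild-type) and 2 labelled STAT5 KO (knockout). STAT5 is a transcription factor that carries prolactin, growth hormone and cytokine signals to the nucleus, and the series concerns the development of luminal progenitor cells of the mammary epithelium. A collection time of 6 days is stated without the event it counts from. The deleted allele, the cells in which it was deleted, and the strain and age of the mice are not given in the sources used here. Signals below are the deposited intensities, and differences are KO minus WT on the scale log2(signal + 16). The median signal of an array lay between 121 and 131. Stat5a gave 2307 and 2061 in the WT mice against 1836 and 861 in the KO mice. Neither Stat5a (limma adjusted p = 0.377) nor Stat5b (adjusted p = 0.193) passed the threshold of 0.05.

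B cells recognise antigen through membrane immunoglobulin, whose signal passes into the cell through the CD79 chains, and T cells through a receptor coupled to the CD3 chains. Both cell types circulate through lymphoid tissue, drawn by chemokines such as CXCL13 and CCL19, and a small lymph node commonly lies within the mouse mammary fat pad. IL-7 signalling through its receptor and STAT5 is known to support lymphocyte development. In a bulk tissue, fewer cells of a type and less RNA per cell cannot be told apart.

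The promoters of these genes were searched for TTCNNNGAA, a motif that STAT5 is known to bind, and for other motifs. In the 250 bases before the transcription start, the RefSeq table used (GRCm38.p6) gave promoters for 22 of the 33 genes, at 29 start sites. TTCNNNGAA, searched on both strands, was present in 3 of these 29 (10.3%), those of Ltb, Il7r and Cd3d, against 7.02% of all 32851 promoters. The octamer ATTTGCAT of lymphoid genes was found in 1 (Blnk) and in 1.60% of all. The ETS-type motif ACAGGAAG was present in 7 of 29 (24.1%), those of Blnk, Cd3e, Cd79a, Coro1a, Il7r, Ltb and Zap70, against 2.90% of all promoters. Promoters of genes with the same lineage are not independent, and a match describes letters, not binding. The promoters with the STAT motif are shown so that the matches can be seen in place, with that of Cd79a as an ETS-type example from a B cell receptor gene. Ltb, Il7r and Cd3d were lower on both KO arrays, as were 19 of all 33 lymphocyte genes and 24.8% of all genes. Whether the motif bears on these differences was not tested. Capitals mark matches to the motifs on either strand, none of which overlap. The windows are chr17:35194257-35194506 on the plus strand for Ltb, chr15:9529877-9530126 on the minus strand for Il7r, chr9:44981536-44981785 on the plus strand for Cd3d and chr7:24897247-24897496 on the plus strand for Cd79a.
Ltb: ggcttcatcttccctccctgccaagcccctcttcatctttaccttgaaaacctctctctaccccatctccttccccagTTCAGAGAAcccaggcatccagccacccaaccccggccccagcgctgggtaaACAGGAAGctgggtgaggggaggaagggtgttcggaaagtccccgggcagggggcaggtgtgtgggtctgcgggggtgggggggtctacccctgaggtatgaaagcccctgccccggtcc
Il7r: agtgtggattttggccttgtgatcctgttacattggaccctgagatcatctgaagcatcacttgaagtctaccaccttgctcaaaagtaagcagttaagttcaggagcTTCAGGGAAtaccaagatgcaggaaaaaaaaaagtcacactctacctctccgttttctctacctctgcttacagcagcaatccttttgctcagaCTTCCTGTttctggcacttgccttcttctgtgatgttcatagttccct
Cd3d: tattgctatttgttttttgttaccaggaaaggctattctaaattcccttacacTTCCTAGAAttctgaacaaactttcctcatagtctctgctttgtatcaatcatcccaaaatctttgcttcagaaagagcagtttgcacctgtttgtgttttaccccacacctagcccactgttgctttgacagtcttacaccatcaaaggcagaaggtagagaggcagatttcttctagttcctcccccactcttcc
Cd79a: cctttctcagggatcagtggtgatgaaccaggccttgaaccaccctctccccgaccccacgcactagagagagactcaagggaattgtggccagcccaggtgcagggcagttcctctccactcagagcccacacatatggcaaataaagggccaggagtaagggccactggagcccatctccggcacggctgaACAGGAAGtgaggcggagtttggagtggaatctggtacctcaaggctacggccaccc

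Most lymphocyte genes were dim. Of the 33, 18 lay below the array median on all 4 arrays, 5 lay above it on all 4 (Blnk, Zap70, Cd37, Coro1a and Ptprc), and 10 lay on both sides. Of all 18193 genes, 6161 lay below it on all 4 arrays and 10692 above it. The array median is taken over all probe sets except controls. The median gene, read from its brightest probe set, stood at 2.53 to 2.63 times it. The median B cell gene stood at 0.465 and 0.828 times the array median on WT replicates 1 and 2, and at 0.480 and 0.331 times it on KO replicates 1 and 2. The median T cell gene stood at 0.766 and 0.597 times it on the WT arrays and at 0.377 and 0.348 times it on the KO arrays. Detection calls were not used here, so how far signals of this size lay from background is not known. The brightest members were Coro1a, a regulator of actin in leukocytes, at 9.11 to 17.2 times the array median, and Ptprc, the pan-leukocyte phosphatase CD45, at 8.62 to 14.6 times it. Neither is particular to lymphocytes. The defining T cell coreceptor Cd4 lay at 0.0925 to 0.158 times the array median on all 4 arrays, and Cd8b1 at 0.0352 to 0.235 times it.

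**Figure D1:**
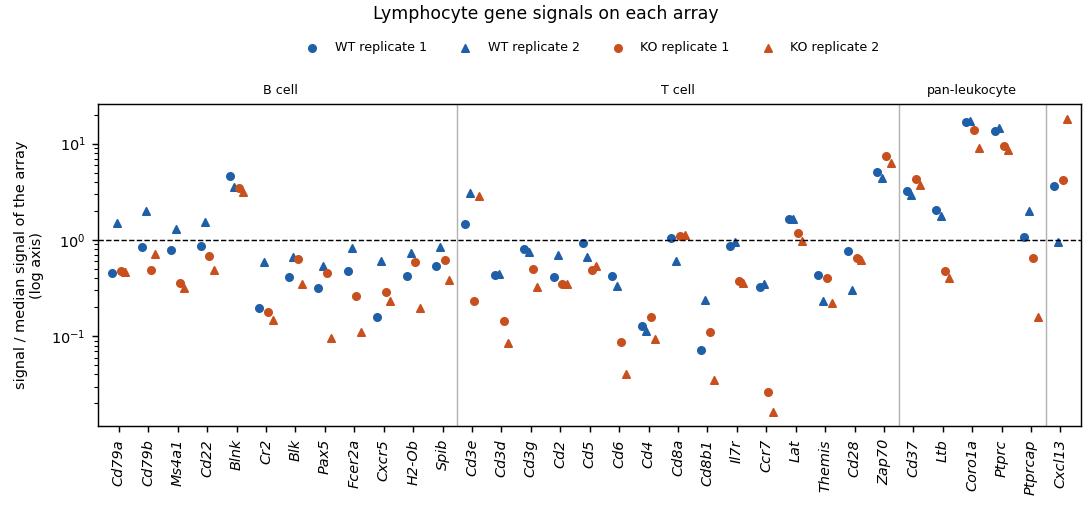
Signal of each measured lymphocyte gene divided by the median signal of its array (log axis), one point per array, with WT in blue, KO in orange and the dashed line at the array median. B cell, T cell and pan-leukocyte genes and, at the right, Cxcl13 are separated by vertical lines. Blnk, Zap70, Cd37, Coro1a and Ptprc lie above the line on all 4 arrays, and 18 genes lie below it on all 4.

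No lymphocyte gene passed the threshold between KO and WT, but most were lower in KO. None of the 33 passed over all probe sets in limma (smallest adjusted p = 0.0885, for Ltb), where 0.0844% of all probe sets were called. At an unadjusted p under 0.05, 14 of the 33 were lower and 1 was higher, where 8.89% of all genes were lower and 8.05% higher. Without WT replicate 2 the number lower was 8, where 5.38% of all genes were, and over the other 3 omissions of an array it was 10 to 15. The difference was negative for 28 of 33, against 51.5% of all genes. Both KO arrays lay below both WT arrays for 19 of 33, against 24.8% of all genes, and above them for 3 (Zap70, Cd37 and Cxcl13), against 23.3%. Among the 6833 genes dimmer than the median of all probe sets, the share with both KO arrays below was 20.4% and the share lower at an unadjusted p under 0.05 was 5.72%. The median difference of the 33 genes was -0.67, against -0.01 for all genes. These genes were chosen with earlier results of these data known and were not drawn at random. Since many are also made by the same cells, their count carries no test.

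**Figure D2:**
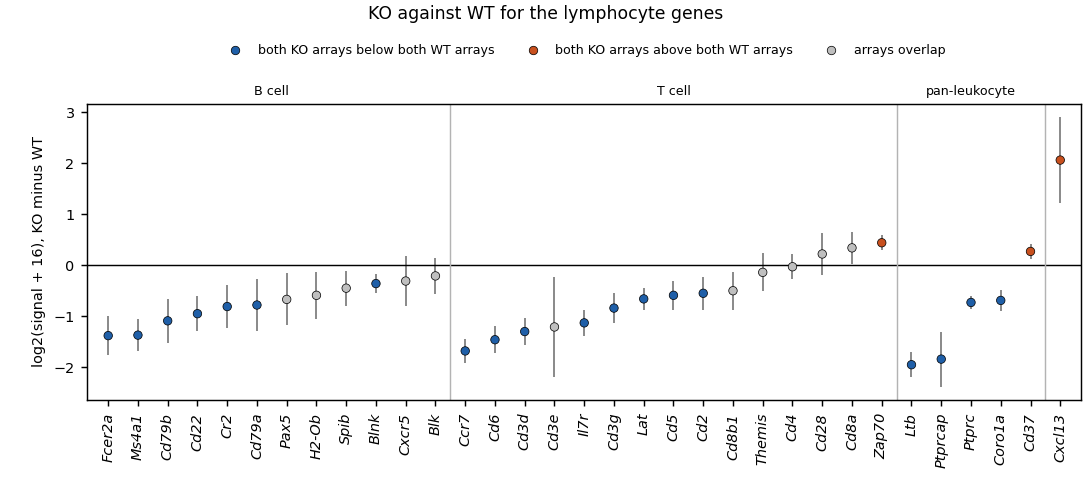
KO minus WT difference of each lymphocyte gene on the log2(signal + 16) scale, ordered within its group; bars are the standard errors of the limma model with 2 arrays per genotype. Blue marks genes with both KO arrays below both WT arrays, orange the reverse and grey an overlap. All 12 B cell genes and 12 of 15 T cell genes lie below 0, and Cxcl13 stands alone at 2.06.

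The B cell receptor chains and surface proteins were lower on both KO arrays, and they also differed between the WT mice. Cd79a, a signalling chain of the receptor, gave 59.6 and 197 in WT replicates 1 and 2 against 57.9 in both KO mice. WT replicate 2 was high, and WT replicate 1 lay close to the KO arrays (difference -0.78, SE 0.51, limma adjusted p = 0.558). Cd79b, its partner chain, gave 111 and 263 in the WT mice against 58.4 and 89.1 in the KO mice. The genotypes did not overlap (difference -1.09, SE 0.43, limma adjusted p = 0.341). Ms4a1, which encodes the B cell surface protein CD20, gave 102 and 170.3 in the WT mice against 43.8 and 39.2 in the KO mice. The KO mean was 30.4% of the WT mean (difference -1.37, SE 0.32, limma adjusted p = 0.168), and its dimmer probe set gave -1.0. Cd22, an inhibitory coreceptor, gave 114 and 201 in the WT mice against 82.3 and 60.8 in the KO mice (difference -0.95, SE 0.34, limma adjusted p = 0.299).

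Of 3 receptors of mature B cells, Fcer2a and Cr2 were lower on both KO arrays and Cxcr5 was not. Fcer2a, the low-affinity IgE receptor CD23, gave 62.4 and 107 in the WT mice against 31.8 and 13.8 in the KO mice, with no overlap (difference -1.38, SE 0.38, limma adjusted p = 0.211). Its dimmer probe set gave -0.78. Cr2, the complement receptor CD21, also found on follicular dendritic cells, gave 26.0 and 76.9 in the WT mice against 21.5 and 18.1 in the KO mice (difference -0.81, limma adjusted p = 0.468). Cxcr5, the receptor for CXCL13, overlapped, with 20.7 and 79.2 in the WT mice against 34.6 and 28.7 in the KO mice.

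The signalling and transcription factors of the B lineage mostly overlapped between genotypes. Blnk, an adaptor downstream of the B cell receptor that myeloid cells also express, was the only B cell gene above the median on every array. It gave 603 and 465 in the WT mice against 424 and 392 in the KO mice (difference -0.36, SE 0.18, limma adjusted p = 0.427). The arrays overlapped for the kinase Blk (-0.21), the lineage factor Pax5 (-0.67), the ETS factor Spib (-0.45) and the MHC class II chaperone chain H2-Ob (-0.59). The second, dimmer Pax5 probe set gave 20.6 and 21.9 in the WT mice against 3.07 and 2.51 in the KO mice (-0.99, limma adjusted p = 0.147).

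In all, 0 of 12 B cell genes passed. At a limma unadjusted p under 0.05, 4 were lower in KO (Cd79b, Ms4a1, Cd22 and Fcer2a) and 0 higher. The shares of all genes were 8.89% lower and 8.05% higher. The median difference of the 12 genes was -0.72. Both KO arrays lay below both WT arrays for 7 of 12, against 24.8% of all genes. On WT replicate 2, 11 of the 12 were higher than on WT replicate 1, by a median of 0.65 on the log2 scale, where 51.0% of all genes were higher. The median difference was -0.32 without WT replicate 2 and -1.16 without WT replicate 1. It was -0.52 without KO replicate 2 and -0.86 without KO replicate 1. With only WT replicate 1 or only KO replicate 1 for its genotype, 10 of 12 differences were negative.

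Chains of the T cell receptor complex were mostly lower on the KO arrays. Cd3d, a chain of the T cell receptor complex, gave 56.7 and 58.0 in the WT mice against 17.6 and 10.4 in the KO mice. Its KO mean was 24.5% of the WT mean (difference -1.30, SE 0.27, limma adjusted p = 0.148). Cd3g, the neighbouring chain, gave 106 and 97.0 in the WT mice against 60.1 and 40.6 in the KO mice (-0.84, SE 0.29, limma adjusted p = 0.287). Neither gene's genotypes overlapped. Cd3e, the remaining CD3 chain of this list, was uneven, with 192 and 404 on the WT arrays, 28.1 on KO replicate 1 and 353 on KO replicate 2. Its difference of -1.21 had an SE of 0.98, and without KO replicate 1 it was 0.32.

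Homing and cytokine receptors of T cells were lower on both KO arrays. Ccr7, the receptor that guides naive T cells and dendritic cells to CCL19 and CCL21, gave 42.1 and 45.0 in the WT mice against 3.18 and 2.03 in the KO mice. The KO mean was 5.99% of the WT mean, although all 4 signals were dim, at 0.0164 to 0.345 times the array median (difference -1.68, SE 0.23, limma adjusted p = 0.103). With a pseudocount of 1 in place of 16 its difference was -3.64, and with 64 it was -0.69. The same pseudocounts gave -2.58 and -0.66 for Cd6, described next, and -2.0 and -0.64 for Cd3d. The adjusted p of Ccr7 ranged from 0.0714 to 0.358 over the alternatives. Il7r, the IL-7 receptor chain, gave 114 and 123 in the WT mice against 45.7 and 44.8 in the KO mice, and did not overlap (difference -1.13, SE 0.26, limma adjusted p = 0.164). Its dimmer probe set gave -0.89 (limma adjusted p = 0.425).

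Cd6, Lat, Cd5 and Cd2 were lower on both KO arrays. Cd6, an adhesion receptor, gave 55.1 and 43.5 in the WT mice against 10.6 and 4.99 in the KO mice (-1.46, SE 0.27, limma adjusted p = 0.137). Lat, the adaptor that links the receptor to calcium signalling, gave 218 and 215 in the WT mice against 144 and 119.8 in the KO mice (-0.66, SE 0.21, limma adjusted p = 0.263). Cd5, a damping receptor also present on some B cells, differed by -0.59 and Cd2, a further adhesion receptor, by -0.55. Neither Cd5 nor Cd2 overlapped between genotypes.

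The coreceptors gave no clear order. Cd4 differed by -0.03 (SE 0.25), turned positive under quantile normalization and median centring, and was dim on every array. Cd8b1 gave 9.44 and 30.7 in the WT mice against 13.3 and 4.38 in the KO mice, with overlap. Cd8a had 5 probe sets, of which 3 were lower and 2, including the brightest at 0.34, higher in KO, and all 5 overlapped. The costimulatory receptor Cd28 differed by 0.22 (SE 0.41) and Themis, a regulator of thymocyte selection, by -0.14 (SE 0.37), both with overlap.

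Zap70, the kinase recruited to the CD3 chains, depended on the probe set. Its brightest probe set gave 671 and 569 in the WT mice against 912 and 779 in the KO mice (0.44, SE 0.15, limma adjusted p = 0.296). The other 2 probe sets were dimmer by several fold and lower in KO, at -0.55 and -0.92 (limma adjusted p = 0.523 and 0.346). Which of the 3 reads the lymphoid transcript was not tested. Of 14 members with more than 1 probe set, 10 had all of them in 1 direction, and Cd8a, Themis, Zap70 and Cd4 did not. Of all 54 member probe sets, 43 were lower in KO and 0 passed the threshold.

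**Figure D3:**
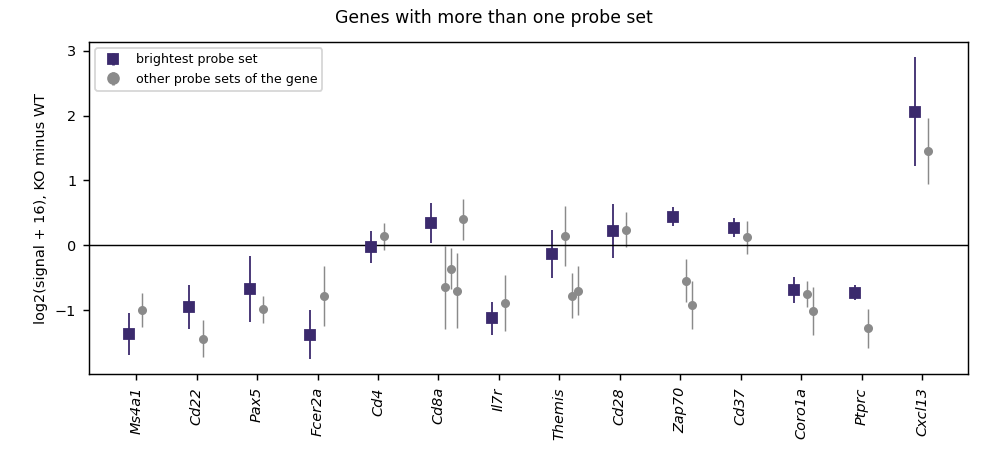
KO minus WT difference on the log2(signal + 16) scale for the 14 genes with more than 1 probe set, with the brightest probe set as a square, the others as circles and bars for the limma standard error. Zap70, Cd8a, Themis and Cd4 have probe sets on both sides of 0, whereas both probe sets of Ms4a1, Cd22, Il7r and Ptprc lie below it and both of Cxcl13 above it.

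In all, 0 of 15 T cell genes passed in limma. An unadjusted p under 0.05 was reached by 6 that were lower (Cd3d, Cd3g, Cd6, Il7r, Ccr7 and Lat) and 1 that was higher (Zap70). The shares of all genes were 8.89% lower and 8.05% higher. The median difference of the 15 genes was -0.59. It was -0.78 without WT replicate 1 and -0.56 without KO replicate 2, with 10 of 15 differences negative in each. Without KO replicate 1, 11 of 15 were negative, and without WT replicate 2, 14 were. Both KO arrays lay below both WT arrays for 8 of 15 and above them for 1, against 24.8% and 23.3% of all genes. The medians of the list against the WT mean were -0.56 and -0.54 on the KO arrays and 0.05 and -0.05 on the WT arrays. For the B cell genes the same medians were -0.52 and -0.86 on the KO arrays and -0.33 and 0.33 on the WT arrays. Both lists lay below the WT mean on each KO array, and the WT arrays were further apart for the B cell genes. The difference between the lists was not tested.

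Among genes shared across lymphocytes or leukocytes, 4 of 5 were lower on both KO arrays, against 24.8% of all genes. Ltb, which encodes lymphotoxin beta, a lymphocyte ligand needed to build and keep lymphoid tissue, gave 272 and 234 in the WT mice against 57.0 and 50.0 in the KO mice. The KO mean was 21.2% of the WT mean, and the genotypes lay far apart (difference -1.95, SE 0.24, limma adjusted p = 0.0885). Over the alternatives the adjusted p of Ltb ranged from 0.0554 to 0.375. Ptprc gave 1790 and 1904 in the WT mice against 1151 and 1072 in the KO mice, 60.2% of the WT mean (-0.73, SE 0.12, limma adjusted p = 0.115). Its adjusted p ranged from 0.0507, when only probe sets above the median were tested, to 0.408.

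Coro1a gave 2221 and 2245 in the WT mice against 1684 and 1132 in the KO mice (-0.69, SE 0.20, limma adjusted p = 0.225), and its other probe sets gave -0.75 and -1.01. Ptprcap, a CD45-associated protein of lymphocytes, gave 141 and 258 in the WT mice against 78.6 and 19.6 in the KO mice (-1.84, SE 0.54, limma adjusted p = 0.227). Cd37, a tetraspanin of B cells and other leukocytes, went the other way. It gave 427 and 386 in the WT mice against 520 and 464 in the KO mice (0.27, SE 0.15, limma adjusted p = 0.501). Of the 5 shared genes 0 passed, and the median difference was -0.73. At a limma unadjusted p under 0.05, 4 were lower, where 8.89% of all genes were. Without WT replicate 2 the median difference of the 5 genes was -0.68.

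Cxcl13, the chemokine that lymphoid stroma makes to attract CXCR5-bearing B cells, was the member furthest above its WT level. It gave 478 and 123 in the WT mice against 510.1 and 2259 in the KO mice. KO replicate 2 was far above the others, and KO replicate 1 lay close to WT replicate 1. The difference of 2.06 (SE 0.84, limma adjusted p = 0.351) became 1.0 without KO replicate 2 and 3.12 without KO replicate 1. The other probe set gave 369 and 192 in the WT mice against 463 and 1252 in the KO mice (1.46, SE 0.51, limma adjusted p = 0.292).

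Other genes of the lineages, in lists chosen with earlier results of these data known, had medians in the same direction, though smaller. They are not an independent check. At a limma unadjusted p under 0.05, 8.89% of all genes were lower and 8.05% higher. Of 19 other B cell genes, 0 passed, 4 were lower and 0 higher at that unadjusted p, and the median was -0.30. Fcmr, the IgM receptor, gave 68.7 and 126 in the WT mice against 37.2 and 31.0 in the KO mice (-1.14, limma adjusted p = 0.245), and the coactivator Pou2af1 differed by -1.06. The brightest of the list, Cd24a (-0.63) and Ebf1 (0.27), are also made by epithelial cells and adipocyte precursors respectively. Of 22 other T cell genes, 0 passed, 5 were lower and 1 higher at an unadjusted p under 0.05, and the median was -0.31. The adaptor Skap1 differed by -1.63 (limma adjusted p = 0.189) and the T lineage factor Bcl11b by -1.36 (limma adjusted p = 0.257). The brightest, Thy1 (0.07) and Gata3 (-0.40), are also genes of fibroblasts and of luminal epithelium.

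Natural killer and cytotoxic genes had a median of -0.44, with 6 of 10 below WT on both KO arrays, against 24.8% of all genes. Ccl5, a chemokine of activated T and natural killer cells, differed by -1.19 (limma adjusted p = 0.141) and the granule gene Nkg7 by -0.81. The 8 MHC class II genes, which B cells, dendritic cells and macrophages express, had a median of -0.64, with 7 of 8 below WT on both KO arrays. Their summed signal was 31249 to 35952 on the WT arrays and 21877 to 22959 on the KO arrays. H2-DMb2 differed by -1.13 and H2-Ab1 by -0.79. Macrophage genes had a median of 0.10, with 3 of 16 below and 7 above WT on both KO arrays, against 24.8% and 23.3% of all genes, led by Cd163 (1.07) and Cd14 (0.80). Their summed signal was 41164 to 47109 in WT and 52344 to 53276 in KO. Plasma cell genes had a median of 0.14, with Irf4 at 1.74 (SE 0.47) and the immunoglobulin gene Igha at 0.51 (SE 0.89). Irf4 was uneven in KO, at 741 and 2178, and Igha overlapped between genotypes. Dendritic cell genes had a median of -0.32, with Cd209a at 1.07 and Batf3 at -0.84. Neutrophil and mast cell genes had a median of 0.01, with Cpa3 at 0.94 and Kit at -0.54. None of these genes passed.

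Genes of lymph node stroma and of high endothelial venules, the vessels through which lymphocytes enter nodes, formed a mixed list of 11 genes. Their median was 0.35, with 4 differences negative and 7 positive. Their summed signal was 7424 to 7447 in WT and 10150 to 10155 in KO. Lyve1, a marker of lymphatic vessels, differed by 1.33 (limma adjusted p = 0.112), with means of 964 in WT and 2390 in KO. Glycam1, a ligand of venules that is also a milk protein, was lower on both KO arrays (-1.28). Madcam1, an adhesion molecule of such venules named after its values were seen, gave 160.4 and 306 in the WT mice against 77.3 and 111 in the KO mice (-1.13, limma adjusted p = 0.257). Madcam1 was higher on WT replicate 2 than on WT replicate 1, as were 11 of 12 B cell genes and 51.0% of all genes. A link between these was not tested. Chemokine and homing partners had a median of -0.31 over 10 genes. Cxcr4, the receptor for CXCL12, gave 1505 and 1433 in the WT mice against 536 and 691 in the KO mice (-1.25, limma adjusted p = 0.0905). Tnfsf11, the RANK ligand gene, gave 1849 and 1933 in the WT mice and an uneven 148 and 592 in the KO mice. Its difference was -2.59 (SE 0.57, limma adjusted p = 0.157). Which cells gave the Tnfsf11 signal was not tested.

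Genes of other tissues are given beside these values, and none of them passed the threshold (smallest limma adjusted p = 0.0682, in skeletal muscle). Skeletal muscle genes were higher on both KO arrays for 12 of 12, against 23.3% of all genes, led by Tnni2 (3.75) and Ckm (3.71). Their summed signal was 579 to 1654 in WT and 6431 to 10659 in KO. General epithelial markers had a median of -0.40. Of 16, 8 lay below and 3 above WT on both KO arrays, against 24.8% and 23.3% of all genes. Their summed signal was 48738 to 50812 in WT and 34468 to 53832 in KO. Ehf differed by -1.78 and Krt7 by 1.02. Adipocyte genes had a median of 0.11, with Lep at -0.76 (SE 0.75, with overlap) and Cidec at 0.28 (SE 0.15). Tnni2 and Ckm were dim on WT replicate 2, at 0.0436 and 0.0759 times the array median. Detection calls were not used, so a signal above 0 does not by itself show that a tissue was present. The part of tissue content in the lower lymphocyte signals was not tested.

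**Figure D4:**
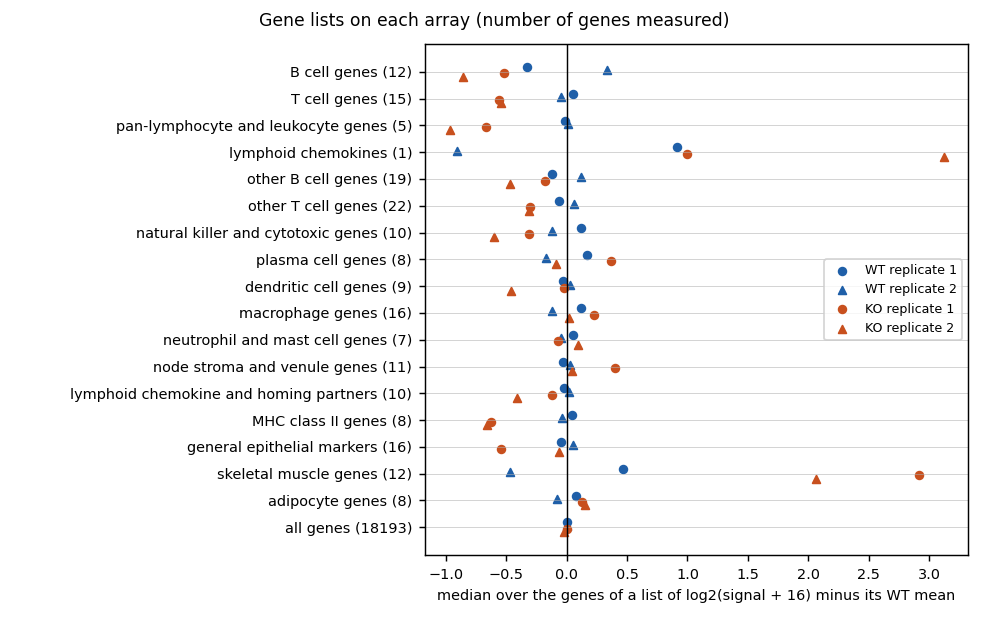
Median over each gene list of the log2(signal + 16) value minus its WT mean, one point per array, with WT in blue and KO in orange and the number of measured genes in brackets. On both KO arrays the B cell, T cell, pan-leukocyte and MHC class II points lie below both WT points. So do the other B cell, other T cell, natural killer, homing partner and epithelial points. The epithelial points come as close as -0.06 on KO replicate 2 against -0.05 on WT replicate 1. The B cell points of WT are 0.33 either side of 0, and skeletal muscle genes lie above 2 on both KO arrays.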

How the data were processed

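Gene expression was measured in mammary tissue on 4 arrays, 2 per genotype, from TRIzol-extracted total RNA labelled with biotin, per the labels. The deposited values are linear intensities per probe set, computed by the authors with MAS5 per the submitters' processing notes; its version and settings are not given in the sources used here. They were used unchanged. After 64 control probe sets were set aside, 45037 were tested. Of these 34945 carried 1 gene symbol, 932 carried several and 9160 carried none here. For each gene the probe set brightest by mean log2 value was used. limma 3.58.1 under R 4.3.3 (lmFit, eBayes with trend) compared KO with WT on log2(signal + 16) with no filter. P-values were adjusted by Benjamini-Hochberg over all probe sets, with a threshold of 0.05. No permutation test was run, since with 2 arrays per genotype its exact two-sided p is at least 0.333. The fit was also run on simulated data in which only probe sets above the median were changed. That run does not show how well changes in dim genes would be found. The design text gives 2 mice per genotype and no more on the replicates, so p-values reflect the spread of these samples alone, which may be technical, and the number of arrays sets a limit on precision. The members and lists were chosen with earlier results of these data known. Named genes are all members, and from every other list up to 4 genes past the threshold or, where none passed, the 2 with the largest absolute difference, with the 2 brightest of the other B and T cell lists. Stat5a, Stat5b and Madcam1 stand outside that rule. Promoters were read from a RefSeq table of GRCm38.p6. The array names no genome build.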

Additional observations from a re-analysis of the deposited data

How the results depend on the processing

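No paired analysis was possible because the labels number the samples across genotypes and pair none of them. Over the 12 alternatives 0 of the 33 lymphocyte genes passed the threshold in any setting, and 24 kept their direction in all. The number of probe sets called was 38, and it was 84 with a pseudocount of 1, 19 with a pseudocount of 64, 450 when only probe sets above the median were tested, 182 above the 75th percentile, 20 after quantile normalization, 2 with no trend, and 1 to 14 with an array left out. The filters left 8 and 3 lymphocyte genes, and no median was taken over those. The median of the B cell genes was -0.97 with a pseudocount of 1 and -0.38 with 64. That of the T cell genes was -0.72 with a pseudocount of 1, -0.40 with 64, -0.51 after quantile normalization and -0.51 after median centring, and -0.78 to -0.54 when single arrays were omitted. Omitting single arrays gave -1.16 to -0.32 for the B cell genes, -0.97 to -0.67 for the shared genes and 1.0 to 3.12 for Cxcl13. The shared genes stood at -1.0 when all probe sets of a gene were averaged. Of genes that turned direction, Cd4 gave 0.03 after quantile normalization, 0.05 after median centring and 0.06 when all probe sets of a gene were averaged, which also gave -0.19 for Cd8a and -0.34 for Zap70. Without single arrays, Cd4 ranged from -0.21 to 0.15, Cd8a from 0.00 to 0.69, Themis from -0.47 to 0.19, Blk from -0.53 to 0.11, Cxcr5 from -1.0 to 0.37, Cd28 from -0.32 to 0.75, Cd3e from -2.74 to 0.32 and Pax5 from -1.35 to 0.01. The cause of these shifts was not tested. Detection calls were not used here, so the levels of genes below the array median have no known distance from background.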
